A study of Mus musculus with 6 samples.

Results

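The 10 genes described here encode sensors of foreign or misplaced nucleic acid and the proteins these sensors need to signal. They are Tlr3, Tlr7, Tlr9, Unc93b1, Myd88, Ifih1, Dhx58, Mavs, Aim2 and Zbp1. They were taken by symbol from a count table of 55493 genes, in which all 10 were found, and all 10 were among the 18210 genes that passed the filter on low counts. RNA was sequenced from microglia, the macrophages that live in brain tissue, which had been sorted from 1 brain hemisphere of male mice by low CD45 and positive CD11b staining. Every mouse carried the ILT Telo Tg transgene, which brings human LILR-region genes into the mouse, and the 5XFAD transgenes, which drive amyloid deposition from a neuronal promoter (Thy1), so both groups share these alleles. From 4 months of age the mice received 60 mg/kg of antibody into the peritoneum each week for 8 weeks. The treated group received ZM3.1, an Fc-mutant antibody against human LILRB4 (ILT3), an inhibitory receptor of myeloid cells, and the control group received 27D6, an Fc-mutant control antibody labelled Ctrl IgG2a. Each group had 3 libraries, with total counts of 39805118 to 44987032 in controls and 41948140 to 56345514 in treated libraries. The labels do not say whether libraries came from separate animals, so tests measure the spread between these libraries. As the libraries are bulk samples, fewer cells that express a gene and less of its RNA per cell cannot be told apart.

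Cells meet nucleic acid at distinct places, and the sensors are divided accordingly. In endosomes, TLR3 binds double-stranded RNA, TLR7 single-stranded RNA and TLR9 DNA rich in unmethylated CpG. UNC93B1 carries these receptors from the endoplasmic reticulum to endosomes, and MYD88 is the adaptor below TLR7 and TLR9, while TLR3 signals through TRIF, the product of Ticam1. In the cytosol, MDA5 (Ifih1) binds long double-stranded RNA, LGP2 (Dhx58) is a related helicase that tunes it, and both act on MAVS, an adaptor on mitochondria. AIM2 binds cytosolic DNA and assembles an inflammasome, and ZBP1 binds Z-form nucleic acid and can start necroptosis through RIPK3. Several of these genes, among them Zbp1, Ifih1 and Dhx58, are known to be induced by interferon.

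Estimated differences between the antibody groups were small except in Zbp1, the Z-form sensor. The CPM of Zbp1 (read counts divided by the TMM-scaled library size, in the usual unit) was lower in every treated library than in any control. Its log2 fold change (treated minus control) was -1.80 with a 95% interval of -2.72 to -0.88, which corresponds to a 3.48-fold lower level. For the other 9 genes the log2 fold change was between -0.11 (Tlr3 and Aim2) and 0.27 (Tlr9), and the groups overlapped in each. Their 95% intervals all included 0 and reached as far as -0.57 (Dhx58) and 0.65 (Tlr9), so differences of that size were not excluded. Of the 10 genes, 0 passed a Benjamini-Hochberg adjusted p of 0.05 in edgeR's quasi-likelihood test, where the background over all tested genes was also 0%. The smallest adjusted p among them was 0.426 (Zbp1). DESeq2 on the same counts called 1 of the 10, Zbp1, lower (adjusted p 0.0101), against a background of 0.928% of genes called in either direction. At an unadjusted p under 0.05 in edgeR 1 of the 10 was lower and 0 were higher, a share near the background of 8.03%. Treated libraries lay below all controls in 1 gene and above all controls in 0, against 7.79% and 6.94% of all tested genes, so that these counts too were near the background. The median log2 fold change of the 10 genes was -0.02, beside -0.01 over all tested genes.

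**Figure D1:**
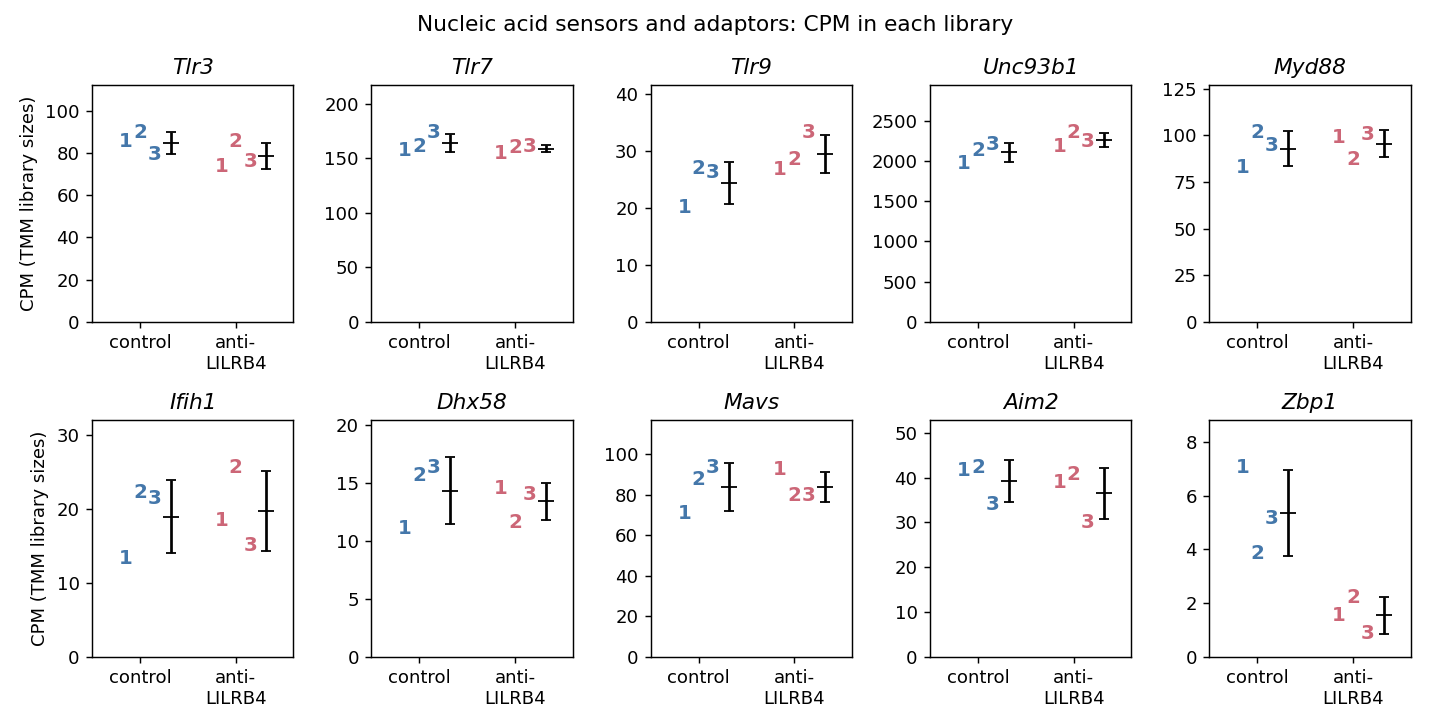
CPM of each of the 10 genes in control (blue) and anti-LILRB4 (red) libraries, with digits marking the library number and black bars the mean ± SD of 3 libraries. Zbp1 is the gene whose groups are separate, between 3.87 and 7.08 CPM in controls and between 0.85 and 2.21 CPM in treated libraries.

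To set levels side by side, CPM was divided by the gene's merged exon length in kilobases. Unc93b1, the chaperone, stood far above all sensors at 695 ± 39.5 CPM per kilobase (SD, n = 3) in controls, and its CPM exceeded that of 99.78% of tested genes. Tlr7 followed at 40.2 ± 2.09 and Myd88 at 36.0 ± 3.72 CPM per kilobase. The ranges of Tlr7 and Myd88 overlapped in both groups, so their order is not beyond the spread. Mavs came next at 25.1 ± 3.58, then Tlr3 at 16.3 ± 1.03 and Aim2 at 11.2 ± 1.33 CPM per kilobase in controls. Tlr9 was at 7.01 ± 1.07 in controls, below Aim2 in 5 of 6 libraries, and the ranges of these neighbours overlapped in the treated group. The lowest levels were those of Dhx58 at 4.38 ± 0.885, Ifih1 at 2.32 ± 0.607 and Zbp1 at 1.52 ± 0.457 CPM per kilobase in controls. Ifih1 and Zbp1 overlapped in controls. In treated libraries they did not, with Ifih1 at 1.85 to 3.14 and Zbp1 at 0.241 to 0.626 CPM per kilobase.

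**Figure D2:**
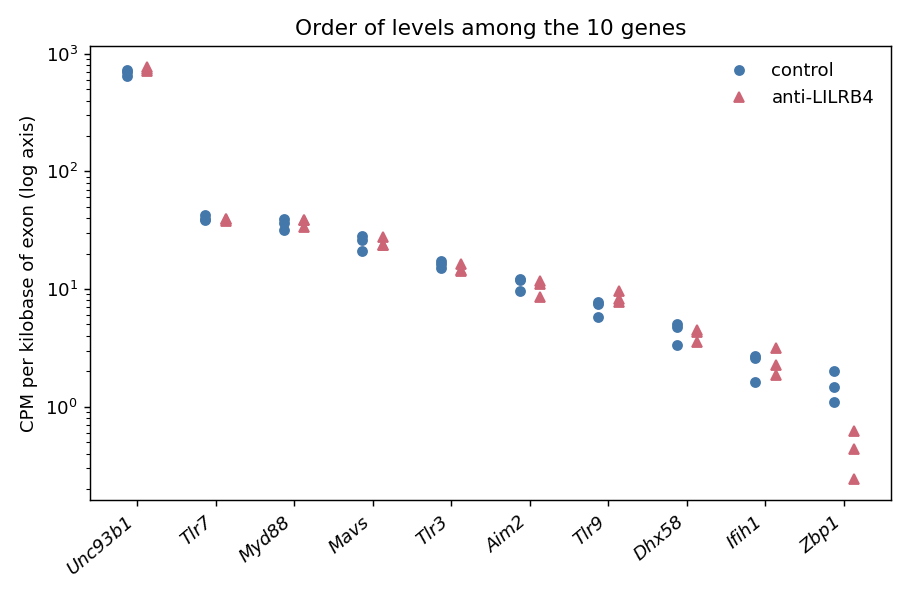
CPM per kilobase of merged exon (log axis) of the 10 genes, ordered by their control mean, with circles for the 3 control and triangles for the 3 anti-LILRB4 libraries. Unc93b1 lies between 651 and 777 in all 6 libraries, the 3 endosomal receptors between 5.79 and 42.5, and Zbp1 is lowest in the treated libraries.

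Interferon-stimulated genes often carry a response element near their start, so the promoter windows of these genes (250 bases before to 50 after the RefSeq start, GRCm38.p6) were searched on both strands for GAAANNGAAA. The table of windows held 6 of the 10 members, Tlr3, Tlr9, Mavs, Aim2, Ifih1 and Myd88. The motif was found in 2 of these, Ifih1 and Myd88, and in 3.44% of all 32851 windows. That share is per window, while a gene was counted if any of its windows matched. Among the other genes of the pathways the motif was found for 11 of the 50 in the table. Of these, Oas1a, which encodes an oligoadenylate synthetase, and Rigi, the RNA helicase RIG-I, were picked for display after their values, given further on, had been seen. The stretches that hold it are shown so that genes with the same letters can be set beside their measurements, with the motif in capitals and 5′ to 3′ on the gene's strand. They come from RefSeq (GRCm38.p6) and lie on the minus strand at chr9:119340019-119340138 (Myd88), chr2:62646206-62646233 (Ifih1), chr4:40239804-40239833 (Rigi) and chr5:120907526-120907645 (Oas1a).
Myd88: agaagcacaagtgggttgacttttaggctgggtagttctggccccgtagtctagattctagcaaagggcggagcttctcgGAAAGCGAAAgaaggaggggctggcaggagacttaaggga
Ifih1: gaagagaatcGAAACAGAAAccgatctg
Rigi: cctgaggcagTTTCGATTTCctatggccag
Oas1a: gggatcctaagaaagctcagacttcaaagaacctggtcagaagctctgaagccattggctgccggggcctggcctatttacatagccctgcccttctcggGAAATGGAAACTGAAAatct
In Oas1a 2 matches overlap, and in Rigi the match is on the opposite strand. Relative to the start, the match begins at base -40 in Myd88 and at base 33 after it in Ifih1. Of these genes, Oas1a had separate groups, lower in the treated libraries, while Myd88, Ifih1 and Rigi overlapped between groups. Of the 11 other pathway genes with the motif, 10 were tested, and the groups overlapped in 9 of them, all but Oas1a. Among all tested genes, 6.94% lay above and 7.79% below all controls, so 1 separate gene of 10 was near the background. A match describes letters only and is not evidence of binding.

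Zbp1 (ENSMUSG00000027514, GRCm38 chromosome 2, 173206612 to 173218923, minus strand) was counted 313, 156 and 227 times in control libraries 1, 2 and 3. In anti-LILRB4 libraries 1, 2 and 3 it was counted 70, 126 and 35 times. On the CPM scale these were 7.08, 3.87 and 5.17 in controls and 1.55, 2.21 and 0.85 in treated libraries. The highest treated library (2) lay below the lowest control (2), so the groups did not overlap. Group means were 5.37 ± 1.61 and 1.54 ± 0.679 CPM (SD, n = 3), and the log2 fold change of -1.80 had a standard error of 0.41. Its adjusted p was 0.426 in edgeR, 0.0101 in DESeq2 and 0.354 in limma-voom. In edgeR with no filter on low counts, where 0.847% of 35404 genes were called, it was 0.00611. Over all 14 alternatives the adjusted p ranged from 0.00611 to 0.673. In the authors' deposited table Zbp1 had a log2 fold change of -1.80 and an adjusted p of 0.00988, and it was the only one of the 10 genes there under 0.05, among 187 of 19059 rows with an adjusted p.

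The size of the Zbp1 difference depended on single libraries within limits that kept its sign. It was -1.51 without anti-LILRB4 library 3, -1.55 without control library 1 and -2.15 without anti-LILRB4 library 2. Zbp1 was also set against each of the other 9 genes within the same library, a ratio that needs no library scaling, in a comparison chosen after the values were seen. For every 1000 counts of Ifih1 there were 534, 174 and 242 counts of Zbp1 in controls 1, 2 and 3 and 84.1, 86.1 and 56.3 in treated libraries 1, 2 and 3. The same ratio to Dhx58 was 641, 248 and 315 in controls and 106.5, 189.8 and 60.55 in treated libraries. All 9 ratios were lower in every treated library than in any control, with mean log2 differences between -2.15 (to Tlr9) and -1.75 (to Aim2). The ratios share their numerator, so they describe the Zbp1 difference again and are not separate tests of it.

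Markers of other cell types moved with Zbp1 in part. The summed CPM of 10 neutrophil markers was 1303, 550.2 and 594.6 in controls 1, 2 and 3 and 127, 1074 and 207 in treated libraries 1, 2 and 3. The highest library of each group in this sum, control 1 and anti-LILRB4 2, was also the highest in Zbp1. Anti-LILRB4 library 2 had a higher neutrophil sum than controls 2 and 3 and a lower Zbp1 level than both. The sort gate, low CD45 with CD11b, is meant to leave out neutrophils and monocytes, which are high in CD45. The part of neutrophil RNA in the Zbp1 difference was not tested. Of the 10 neutrophil markers, 8 had negative and 2 positive log2 fold changes, and none was at 0 in all libraries of a group. Summed monocyte markers (7 genes) were at 103, 47.0 and 55.1 CPM in controls 1, 2 and 3 and at 37.1, 74.3 and 30.5 CPM in treated libraries 1, 2 and 3, where F10 was at 0 in all 3. Within each group the libraries had the same order in this sum as in Zbp1, and all 5 monocyte markers tested had negative log2 fold changes. Treated library 2 again lay above controls 2 and 3 in the marker sum and below both in Zbp1. Their part was not tested either. Across the 6 libraries, the 5 genes with a mean log2 CPM of at least 2 whose level followed Zbp1 most closely were D730044K07Rik (Pearson's r = 0.997), Ints12 (0.996), Cd81 (0.994), Ddx50 (0.992) and Tnfsf8 (0.991). These r values are the largest of a search over all mouse genes tested at that level, so they are high by selection. They describe 6 libraries that share their treatment grouping. The log2 fold changes of the 5 genes were between -1.16 (Tnfsf8) and -0.25 (Cd81).

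**Figure D3:**
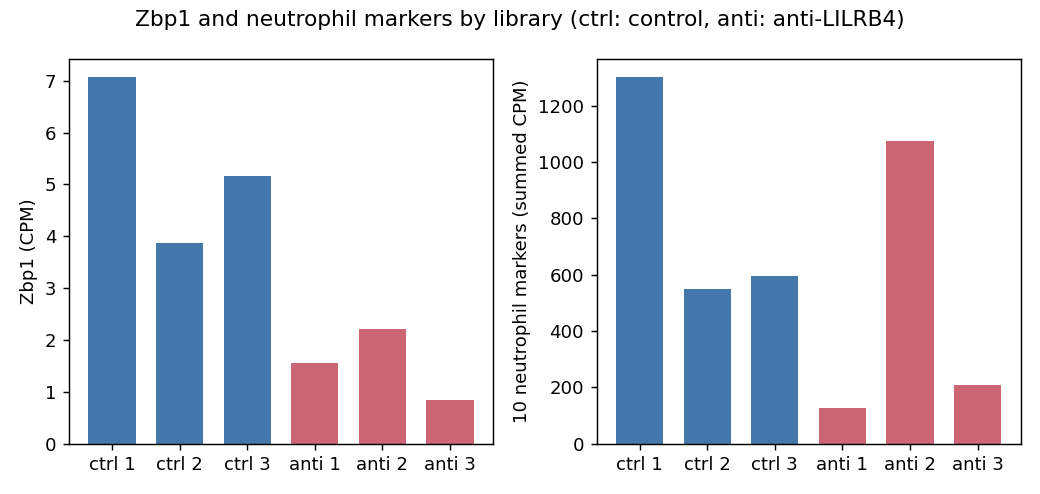
Zbp1 in CPM (left) and the summed CPM of 10 neutrophil markers (right) in each library, with control libraries in blue and anti-LILRB4 libraries in red. Zbp1 is between 0.85 and 2.21 CPM in all 3 treated libraries, while the neutrophil sum of anti-LILRB4 library 2, at 1074 CPM, lies above those of controls 2 and 3.

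The endosomal receptors overlapped between the antibody groups. Tlr7 (ENSMUSG00000044583, chromosome X, 167304929 to 167330558, minus strand) was at 157, 161 and 174 CPM in controls 1, 2 and 3 and at 155, 159.9 and 161 CPM in treated libraries 1, 2 and 3. The groups overlapped, and the log2 fold change of -0.05 had a 95% interval of -0.27 to 0.17. Tlr3 (ENSMUSG00000031639, chromosome 8, 45395665 to 45411080, minus strand) was at 85.3, 89.8 and 79.2 CPM in controls and at 73.8, 85.4 and 76.2 CPM in treated libraries. Its treated libraries 1 and 3 lay below all controls and library 2 did not, with a log2 fold change of -0.11 (interval -0.37 to 0.15). Exons of the antisense gene Gm45542 cover 7.32% of the Tlr3 exon length, and the library kit does not mark strand.

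Tlr9, the CpG DNA receptor (ENSMUSG00000045322, chromosome 9, 106222598 to 106226883, plus strand), had the largest positive value of the 10 genes. It was at 20.1, 26.9 and 26.2 CPM in controls 1, 2 and 3 and at 26.7, 28.5 and 33.2 CPM in treated libraries 1, 2 and 3. Control 2 lay just above anti-LILRB4 library 1, so the groups overlapped by that pair. The log2 fold change was 0.27 with an interval of -0.11 to 0.65 and an edgeR adjusted p of 0.733, and it was 0.15 without control library 1. Within the summed CPM per kilobase of Tlr3, Tlr7 and Tlr9, Tlr9 made up 9.53, 12.0 and 11.5% in controls and 12.87, 12.85 and 15.0% in treated libraries. These shares did not overlap between groups (exact permutation p = 0.1, two-sided, and 0.3 adjusted over the 3 receptors). With 3 libraries a group, 0.1 is the smallest two-sided p this test can give, so it only restates that separation. Tlr7 held 61.2 to 65.2% in controls and 61.4 to 63.4% in treated libraries, and Tlr3 23.3 to 27.0% and 23.0 to 25.7%, with overlapping groups in both. The shares were computed after the CPM values had been seen. B cell and plasmacytoid dendritic cell markers were followed because these cells are known for TLR7 and TLR9. The 6 B cell markers summed to 51.4 to 144 CPM in controls and 94.6 to 160 in treated libraries. The 6 plasmacytoid markers summed to 33.5 to 83.5 CPM in controls and 35.5 to 39.3 in treated libraries. Klk1 was at 0 in all treated libraries, while of the 5 plasmacytoid markers tested 3 had positive and 2 negative log2 fold changes. The gate is meant to leave these cells out too, and their part in the Tlr9 values was not tested.

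**Figure D4:**
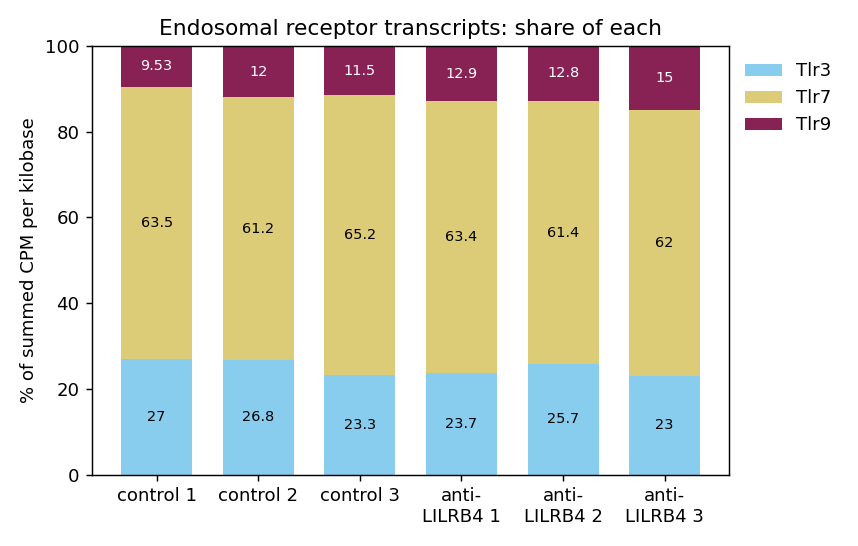
Share of Tlr3, Tlr7 and Tlr9 in the summed CPM per kilobase of these receptors, 1 bar per library. Tlr7 holds 61.2 to 65.2% in every library, and the Tlr9 share is 9.53 to 12.0% in controls and 12.85 to 15.0% in treated libraries.

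The chaperone and the adaptor of the endosomal branch also kept to narrow ranges. Unc93b1 (ENSMUSG00000036908, chromosome 19, 3935186 to 3949340, plus strand) was at 1974, 2135 and 2208 CPM in controls 1, 2 and 3 and at 2182, 2356 and 2242 CPM in treated libraries 1, 2 and 3. Treated libraries 2 and 3 lay above all controls and library 1 below control 3. Its log2 fold change of 0.10 had the narrowest interval of the 10 genes, -0.07 to 0.27. Myd88 (ENSMUSG00000032508, chromosome 9, 119335934 to 119341411, minus strand) was at 82.6, 102 and 94.3 CPM in controls and at 98.9, 87.2 and 100.2 CPM in treated libraries. The groups overlapped (log2 fold change 0.04, interval -0.23 to 0.31), and its value was -0.04 without control library 1. Exons of Acaa1a on the other strand cover 11.3% of the Myd88 exon length.

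The cytosolic RNA sensors overlapped between groups and varied more from library to library. Ifih1 (ENSMUSG00000026896, chromosome 2, 62595798 to 62646255, minus strand) was at 13.2, 22.2 and 21.4 CPM in controls 1, 2 and 3 and at 18.4, 25.7 and 15.1 CPM in treated libraries 1, 2 and 3. The lowest library was a control and the highest a treated one, with coefficients of variation of 26.2 and 27.3%. The log2 fold change of 0.06 had an interval of -0.51 to 0.63. Differences within that interval, in either direction, were not excluded with these libraries. The sign turned to -0.14 with control library 1 left out and to -0.17 with anti-LILRB4 library 2 left out. Dhx58 (ENSMUSG00000017830, chromosome 11, 100694884 to 100704271, minus strand) was at 11.03, 15.6 and 16.4 CPM in controls and at 14.6, 11.6 and 14.0 CPM in treated libraries. All treated libraries lay within the range of the controls, and the log2 fold change was -0.10 (interval -0.57 to 0.38). Exons of Dhx58os on the opposite strand cover 4.31% of its exon length. Their adaptor Mavs (ENSMUSG00000037523, chromosome 2, 131234063 to 131248025, plus strand) was at 70.5, 87.4 and 93.7 CPM in controls and at 92.5, 79.8 and 79.5 CPM in treated libraries. The treated values again lay within the control range, with a log2 fold change of 0.00 (interval -0.30 to 0.31).

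Aim2, the DNA sensor of the inflammasome (ENSMUSG00000037860, chromosome 1, 173350879 to 173466040, plus strand), was at 41.7, 42.4 and 34.0 CPM in controls 1, 2 and 3 and at 38.9, 40.7 and 29.9 CPM in treated libraries 1, 2 and 3. The groups overlapped. Library 3 was the lowest of its group in both. The log2 fold change was -0.11 (interval -0.47 to 0.26), and it was 0.02 without anti-LILRB4 library 3 and -0.20 without control library 3.

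Control library 1 was at the edge of the range in most of the 10 genes. It had the lowest CPM of all 6 libraries in 6 genes, Tlr9, Unc93b1, Myd88, Ifih1, Dhx58 and Mavs, and the highest in Zbp1. It also held the largest neutrophil marker sum, and its 8 microglia markers summed to 40194 CPM, the lowest of the 6 libraries (up to 42944 in controls and 43158 to 44414 in treated libraries). The microglia sum was higher in every treated library than in any control, with 6 of the 8 markers positive and 2 negative. Its part in the values was not tested. Without control library 1 the median log2 fold change of the 10 genes was -0.09. All 8 microglia markers had a mean above 1 CPM. T and NK cell markers (7 of 7), neuron markers (5 of 5) and 4 of 5 astrocyte markers had a mean under 1 CPM. Oligodendrocyte markers (5 genes) summed to 49.4 to 63.8 CPM in controls and 52.7 to 74.5 in treated libraries. Markers of border-associated macrophages summed to 38.0 to 52.5 and 45.2 to 76.7 CPM, and all 7 had positive log2 fold changes. The part of these cells in the values was not tested.

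A list of 57 other genes of the same pathways was measured beside the members. All were in the table and 54 passed the filter on low counts. In edgeR 0 of the 54 were called in either direction, and at an unadjusted p under 0.05 there were 2 higher and 3 lower, a share near the 8.03% background. DESeq2 called 1 higher and 1 lower of the 54, beside 0.928% of all tested genes in either direction. The median log2 fold change was 0.05, with 30 positive and 24 negative values, and 3 genes lay above and 2 below all controls, at or under the background of 6.94% and 7.79%. The double-stranded RNA effectors had the lowest median of the 7 subgroups of the list, -0.68 over 7 genes, 5 negative and 2 positive. This median is the value of Oas2, a gene at 0.15 to 0.79 CPM whose groups overlapped. Of the 7 effectors, 2 lay below and 1 above all controls. The other subgroups had medians between -0.19 (Ifi200 family, 6 genes) and 0.10 (cytosolic sensing and ubiquitin ligases, 5 genes).

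Cnpy3, a chaperone that folds Toll-like receptors in the endoplasmic reticulum, had the smallest p of the list. It was at 70.1, 76.6 and 82.2 CPM in controls 1, 2 and 3 and at 98.5, 121 and 118 CPM in treated libraries 1, 2 and 3. All treated libraries lay above all controls. The difference was 0.56 on the log2 scale with a standard error of 0.13, and edgeR gave it an adjusted p of 0.426 and DESeq2 one of 0.00839. Over the 14 alternatives its adjusted p ranged from 0.00839 to 0.672, and the authors' deposited table gives it an adjusted p of 0.00891. Hsp90b1, the chaperone gp96 that works with CNPY3, was at 151 to 172 CPM in controls and 170.1 to 219 CPM in treated libraries, with overlapping groups and a log2 fold change of 0.24 (interval -0.05 to 0.52), or 0.12 without anti-LILRB4 library 2. Pld4, a lysosomal exonuclease that trims single-stranded DNA and RNA, was at 653, 828 and 817 CPM in controls and at 812, 1226 and 965 CPM in treated libraries. The groups overlapped, at a log2 fold change of 0.39 (interval 0.05 to 0.72), and it was 0.22 without anti-LILRB4 library 2, the highest of the treated ones. Irak4, a kinase below MYD88, had a log2 fold change of 0.32 (interval -0.04 to 0.69), or 0.20 without anti-LILRB4 library 2.

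Among the double-stranded RNA effectors, Oas1a was at 15.7, 13.3 and 13.9 CPM in controls 1, 2 and 3 and at 6.65, 6.92 and 9.30 CPM in treated libraries 1, 2 and 3. The groups were separate, by -0.91 on the log2 scale with a standard error of 0.22. EdgeR gave an adjusted p of 0.426 and DESeq2 one of 0.0124, and the alternatives ranged from 0.0124 to 0.676. Oasl2, an oligoadenylate synthetase-like gene, was at 19.6, 12.1 and 11.1 CPM in controls and 7.74, 10.0 and 6.22 CPM in treated libraries. Its groups were separate too, with a difference of -0.83 that became -0.53 with control library 1 left out. Oasl1 was at 4.05, 2.13 and 0.159 CPM in controls, so that control 3 lay below every treated library (0.316 to 0.701 CPM). The edgeR estimate was -2.0 (interval -3.96 to -0.04), which became -1.12 with control library 1 left out and -1.09 in limma-voom. Not all effectors were lower. Oas3 had a log2 fold change of 0.53 (interval -1.90 to 2.97) and Eif2ak2 one of -0.36 (interval -1.01 to 0.30), with overlapping groups in both. Oas genes are a family of close copies, and how reads that match several copies were counted is not given in the sources used here.

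**Figure D5:**
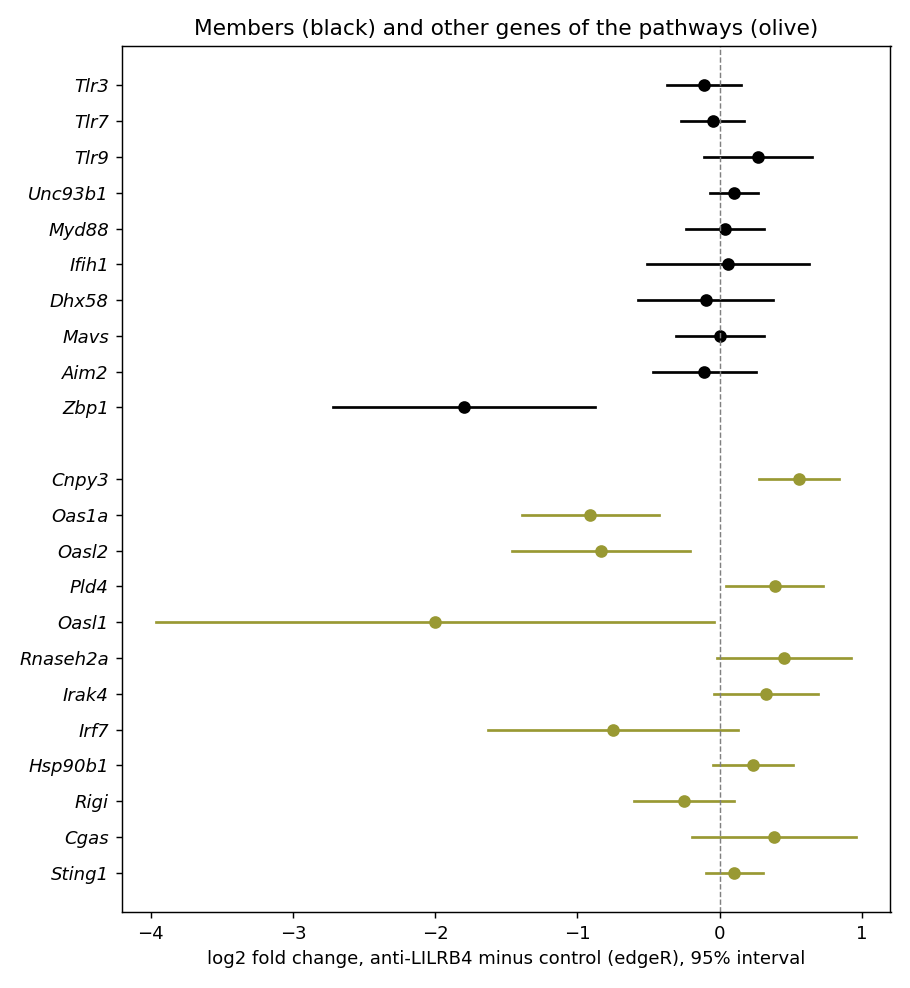
Log2 fold change (treated minus control, edgeR) with its 95% interval for the 10 members in black and for 12 other genes of the pathways in olive. Zbp1, Oas1a, Oasl2 and Oasl1 have intervals below 0 and Cnpy3 and Pld4 above 0, and those of the other 9 members include 0.

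The other main sensors of the cytosol were measured as well. Rigi, the sensor of short RNA with a free triphosphate (Ddx58 in the table), was at 48.6, 34.1 and 39.2 CPM in controls 1, 2 and 3 and at 34.7, 35.8 and 31.96 CPM in treated libraries 1, 2 and 3. The groups overlapped (log2 fold change -0.25, interval -0.60 to 0.10, and -0.10 without control library 1). Cgas, the DNA sensor that makes cyclic GMP-AMP, was at 12.9, 12.3 and 23.7 CPM in controls and at 19.3, 23.8 and 20.6 CPM in treated libraries. Control 3 was at the level of the treated libraries while controls 1 and 2 lay below, and the log2 fold change was 0.38 (interval -0.19 to 0.96). It became 0.22 with control library 2 left out and 0.75 with control library 3 left out. Its partner Sting1 was at 723 to 755 CPM in controls and 728 to 852 CPM in treated libraries (log2 fold change 0.10, interval -0.10 to 0.30), and single libraries moved this value between 0.05 (anti-LILRB4 library 3 left out) and 0.17 (library 1 of the same group left out). Irf7, a transcription factor of interferon genes, was at 22.5, 6.37 and 20.6 CPM in controls and 8.64, 11.6 and 9.20 CPM in treated libraries. Control 2 lay below all treated libraries, and the log2 fold change of -0.75 became -0.46 with control library 1 left out and -1.13 with control library 2 left out. Rnaseh2a, a subunit of the nuclease that removes RNA from DNA, had a log2 fold change of 0.45 (interval -0.02 to 0.92). The nuclease gene Trex1 was listed at 0 counts in all 6 libraries. In GENCODE M21 100% of its exon length lies within exons of Atrip on the same strand, so its count is not read as a level.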

How the data were processed

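RNA was measured in 6 libraries, grouped and numbered by their titles. The deposited table holds whole read counts per gene, not normalized. STAR, Salmon, DESeq2 1.38.3, Subread and featureCounts are listed, with no role, in the submitters' processing notes. The build and the rule for multi-mapping reads: not given in the sources used here. A second deposited table, with DESeq2's column names per the file headers, gives the authors' log2 fold change with its error, a score (fold change over error), p-values and a mean normalized signal per gene.

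Repeated identifiers (287 rows, identical counts) were dropped. Counts were fitted with edgeR 4.0.16 (R 4.3.3): filterByExpr (minimum count 10), TMM, quasi-likelihood F test without covariates, Benjamini-Hochberg adjustment over all tested genes, threshold 0.05. Standard errors are the fold change over the square root of F, and 95% intervals use the fit's degrees of freedom. DESeq2 1.42.0 and limma-voom (limma 3.58.1) were alternatives. Tests were checked on simulated counts. Coordinates, exon lengths and overlaps are GENCODE M21 (GRCm38), joined by Ensembl identifier, and promoters RefSeq GRCm38.p6. Figures were drawn with matplotlib 3.10.9.

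Members and lists were chosen with earlier results of these data known. Named genes were the 10 members, the 10 other pathway genes with the smallest p, Cgas, Sting1, Rigi and the 5 genes nearest to the member with the smallest p. One of these pathway genes is not reported here. Trex1, Oas2, Oas3, Eif2ak2 and the subgroup medians were added after values were seen. All pairs of libraries differed beyond sampling noise. Permutation tests were exact.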

Additional observations from a re-analysis of the deposited data

How the results depend on the processing

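Under the 14 alternatives, the log2 fold change of Zbp1 stayed between -2.15 and -1.51, and its adjusted p was under 0.05 with DESeq2 and with edgeR without a filter on low counts. The number of all genes called went from 0 to 169 with DESeq2 and to 300 with no filter, members called from 0 to 1 with each, and genes of the wider list called from 0 to 2 with DESeq2 and 1 with no filter. The counts of all 3 were 0 in every fit that left out 1 library. Limma-voom also called 0 genes, with 1636 at an unadjusted p under 0.05 (edgeR 1463).

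The members' median log2 fold change was between -0.09 and 0.03 when single libraries were left out, and between -0.03 and -0.01 under the other settings. With single libraries left out, Tlr3 ranged from -0.17 to -0.06, Tlr7 from -0.08 to -0.01, Tlr9 from 0.15 to 0.35 and Unc93b1 from 0.06 to 0.14. Signs turned for 5 members in such fits. Myd88 ranged from -0.0381 (without control 1) to 0.115, Ifih1 from -0.168 (without anti-LILRB4 2; -0.143 without control 1) to 0.219, and Dhx58 from -0.256 to 0.00884 (without control 3; 0.00309 without anti-LILRB4 2). Mavs ranged from -0.109 (without control 1; -0.0724 without anti-LILRB4 1) to 0.0890, and Aim2 from -0.204 to 0.0160 (without anti-LILRB4 3). With a CPM of at least 1 in 3 libraries Mavs was at -0.00350. The cause was not tested.

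The labels do not say whether same-numbered libraries are pairs. Correlations of their deviations from group means were 0.01, 0.03 and -0.01, and those of differently numbered libraries were between -0.06 and 0.04. These values showed no sign of pairing but cannot exclude it. With a replicate block 0 genes were called, Zbp1 was at -1.86 (adjusted p 0.336) and no call of a member changed. Oasl1 did not pass the filter of a CPM of at least 1 in 3 libraries and has no value there. For members other than Zbp1 the 95% intervals included 0, and differences within those intervals were not excluded with 3 libraries a group. The interval of Zbp1 lay below 0, but its adjusted p in the main edgeR fit was 0.426.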
